A study of Mus musculus with 12 samples.

Results

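A set of 10 genes of the endothelial surface and of endothelial cell contacts were followed across Affymetrix mouse gene arrays of embryonic stem cells (ESC) and of neural progenitor cells (NPC). They were Emcn, Cdh5, Cd93, Adgrl4, Pecam1, Esam, Cd34, Robo4, Rhoj and Rasgrp3. Each was found by its gene symbol and had 1 probe set, so they make 10 of the 18784 named genes on the array. The set was selected on measured values of these arrays: Emcn, Cdh5 and Cd93 were lower in knockdown NPC than in control NPC. For that comparison the values of all 10 are therefore a description, without a test.

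The 12 arrays form 4 groups of 3, which are knockdown NPC, control NPC, knockdown ESC and control ESC. All cells were E14TG2a.4, a feeder-independent mouse ESC line, or NPC made from it, and all carried a lentiviral PLKO.1 construct and were selected with puromycin. Knockdown cells carried an shRNA against Jarid1b (LKOJarid1b), and control cells a scrambled one (LKOScr). Jarid1b, now Kdm5b, encodes a demethylase of lysine 4 of histone H3. The labels name 1 Jarid1b construct and do not say whether the arrays of a group came from separate cultures, so a p-value here covers array-to-array spread that may be technical. ESC were grown with LIF, a factor that keeps them pluripotent, and NPC were made by a published differentiation protocol.

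Kdm5b was at 10.38, 10.48 and 10.54 in knockdown NPC, against 11.24, 11.15 and 11.30 in control NPC (log2 values). In ESC it was at 10.64, 10.90 and 10.50 in knockdown cells, against 12.25, 12.47 and 12.50 in control cells. Knockdown arrays thus lay below control arrays in both states. Of 10 neural progenitor markers 9 rose and 1 fell from ESC to NPC in knockdown cells and likewise in control cells, and all 10 pluripotent cell markers fell in both (limma adjusted p under 0.05). Values are log2 intensities after RMA, a method that corrects background, normalizes arrays to each other and summarizes the probes of a gene. They carry no detection calls, array lower quartiles lay between 5.84 and 6.11, and an absent gene cannot be told from one below them.

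Endothelial cells line blood vessels. They hold on to each other through adherens junctions built on VE-cadherin, the product of Cdh5, and through immunoglobulin-type adhesion molecules, among them those encoded by Pecam1 and Esam. Their surface carries sialomucins, which are heavily glycosylated proteins such as endomucin (Emcn) and CD34, and receptors for matrix and guidance cues. Outside the endothelium, Pecam1 is also found on blood cells and on mouse ESC, and Cd34 on blood progenitors. NPC are a neural culture, and its bulk RNA cannot tell fewer cells of a type from less RNA per cell.

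All 10 genes had a lower mean in knockdown NPC than in control NPC, and for 9 of them the arrays of the 2 groups did not overlap. Of all 18784 genes, 5.91% were lower and 8.3% higher without overlap in this comparison. Nothing is read from these counts, since the comparison chose the genes. The log2 differences ran from -2.58 for Emcn to -0.53 for Robo4, with a median of -1.41, beside a median of 0.0037 over all genes.

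Emcn, the sialomucin of capillary and venous endothelium, was at 6.64, 6.39 and 5.44 in knockdown NPC, against 7.76, 8.87 and 9.58 in control NPC. The groups did not overlap, and replicate 1 was the highest knockdown array and the lowest control array. The difference was -2.58 ± 0.37 (SE), or 5.98-fold lower. Among junction genes, Cdh5, which encodes the adherens junction cadherin, was at 7.50, 7.15 and 6.61 in knockdown NPC, against 8.26, 9.70 and 9.25 in control NPC. All knockdown arrays lay below all control arrays, and the difference was -1.98 ± 0.29 (SE), or 3.95-fold lower.

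Cd93 encodes a transmembrane glycoprotein with a lectin-like domain that binds endothelial matrix. It was at 5.57, 5.32 and 5.18 in knockdown NPC, against 6.58, 7.12 and 7.56 in control NPC. The difference was -1.73 ± 0.20 (SE) without overlap, and all 3 knockdown values were under the lower quartile of every array.

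Of the other junction genes, Pecam1 was at 6.57, 6.41 and 5.96 in knockdown NPC, against 6.56, 7.20 and 7.24 in control NPC. This was the one gene whose groups overlapped, because knockdown replicate 1 lay level with control replicate 1. Its difference was -0.68 ± 0.18 (SE). Esam, which encodes an immunoglobulin-type adhesion molecule of endothelial tight junctions, was at 7.01, 6.88 and 6.91 in knockdown NPC, against 7.19, 7.72 and 8.06 in control NPC. The groups did not overlap, and the difference was -0.72 ± 0.18 (SE).

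Of the other surface genes, Adgrl4, an adhesion G protein-coupled receptor gene, was at 5.15, 4.82 and 4.58 in knockdown NPC, against 5.74, 6.17 and 7.01 in control NPC (-1.46 ± 0.25, SE). Cd34 was at 7.79, 7.47 and 6.84 in knockdown NPC, against 8.09, 8.50 and 9.30 in control NPC (-1.27 ± 0.30, SE). Robo4, the endothelial member of the roundabout receptors, was at 6.32, 6.71 and 6.50 in knockdown NPC, against 6.93, 7.10 and 7.11 in control NPC (-0.53 ± 0.12, SE). None of these 3 overlapped between the groups, and Robo4 had the smallest difference of the 10.

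The remaining pair act inside the cell. Rhoj encodes a small GTPase related to Cdc42 that acts in endothelial migration. It was at 6.38, 6.38 and 5.66 in knockdown NPC, against 7.01, 7.65 and 7.86 in control NPC (-1.37 ± 0.22, SE). Rasgrp3, which encodes an exchange factor that activates Ras and Rap and responds to diacylglycerol, was at 5.03, 5.07 and 4.84 in knockdown NPC, against 5.90, 7.28 and 7.11 in control NPC (-1.78 ± 0.26, SE). Both were lower in knockdown NPC in all arrays. Each SE rests on 1 estimate of the spread over the 4 groups, and the groups were not equally spread. For Rasgrp3 the SD was 0.12 in knockdown NPC, 0.75 in control NPC, 0.043 in knockdown ESC and 0.12 in control ESC.

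**Figure D1:**
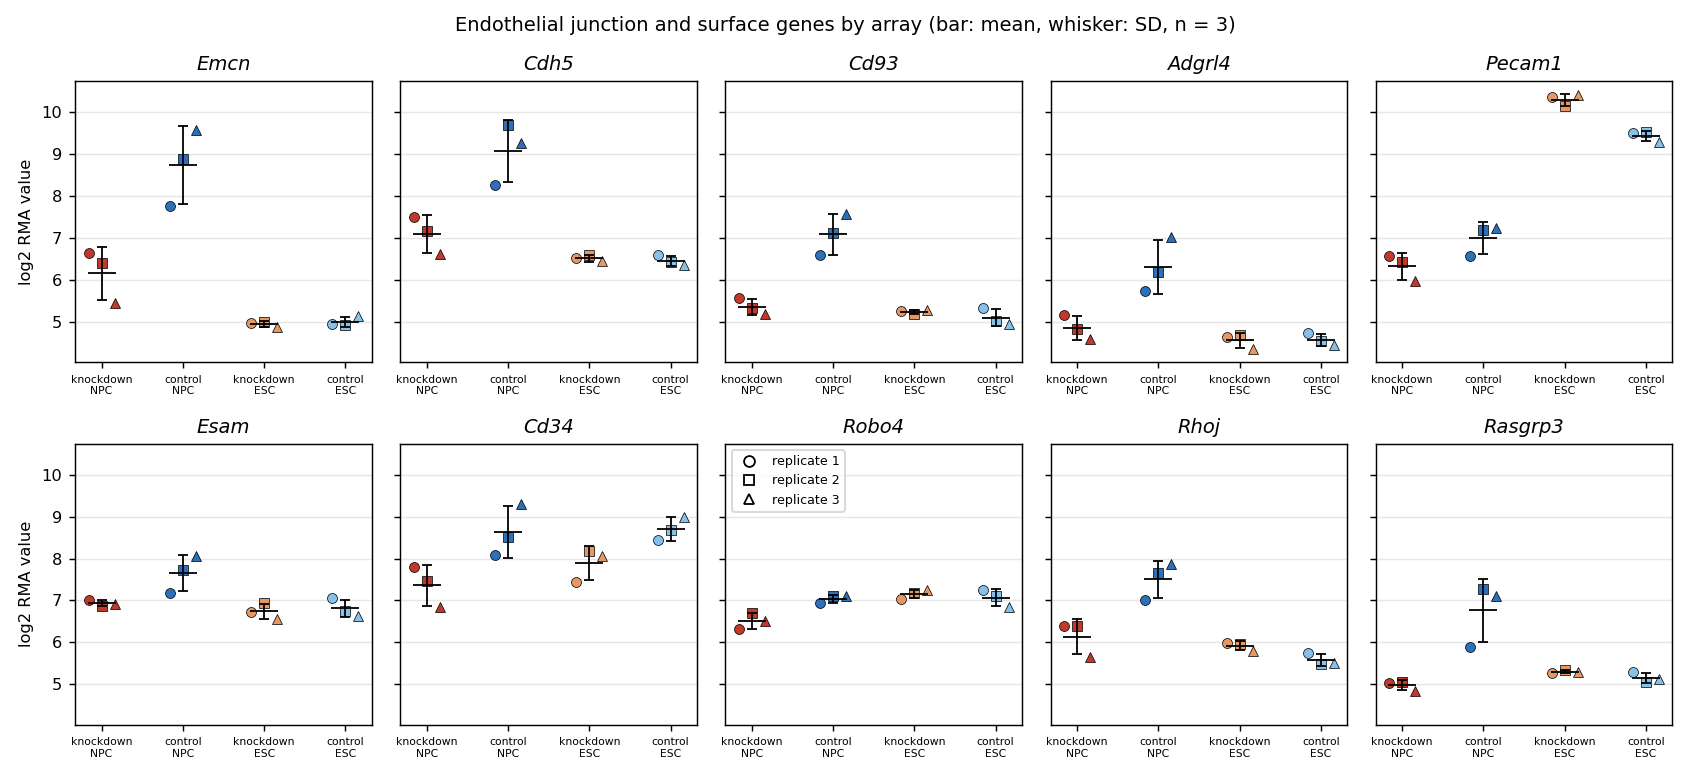
Log2 RMA value (vertical axis) of each of the 10 genes in each array, by group. Points are arrays with the marker giving the replicate number, bars are means and whiskers are SD (n = 3). Knockdown NPC arrays lie below control NPC arrays for 9 genes, with Pecam1 the exception, and Pecam1 is at 9.29 or above in ESC.

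The genes varied together between arrays of 1 group. Control NPC replicate 1 was the lowest control NPC array for 10 of 10 genes, against 25.4% of all genes, and control NPC replicate 3 was the highest for 8 of 10, against 31.9% of all genes. Knockdown NPC replicate 3 was the lowest of its group for 8 of 10, against 29.8% of all genes, and replicate 1 the highest for 8 of 10, against 31.6%. Averaged over the 10 genes, the level was 6.40, 6.26 and 5.85 in the knockdown NPC arrays, against 7.0, 7.73 and 8.01 in the control NPC arrays. Deviations from the group means over the 6 NPC arrays correlated with those of Emcn at a median r of 0.93 for the other 9 genes. The lowest was Robo4 at 0.26 and the highest Rhoj at 0.97. Across all other genes this r had a median of -0.068 and ran from -0.82 to 0.79 between the 5th and the 95th percentile. These r are a description over the same 6 arrays for every gene, and genes are not independent replicates.

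Sequences before the annotated starts of 6 of the 10 genes were taken from RefSeq (GRCm38.p6), as 7 windows of 250 bases, with 2 for Rasgrp3. Shown are those of the 4 genes with the largest NPC differences among them. For Rasgrp3 it is the window of the upstream start. ETS factors, a family active in endothelium, bind sites with a GGAA core, so AGGAAG and CGGAAG were searched on both strands, and matches stand in capitals (a match on the opposite strand reads CTTCCT). Each runs 5′ to 3′ on the + strand and ends at the base before the start.
Emcn (chr3:137340828-137341077): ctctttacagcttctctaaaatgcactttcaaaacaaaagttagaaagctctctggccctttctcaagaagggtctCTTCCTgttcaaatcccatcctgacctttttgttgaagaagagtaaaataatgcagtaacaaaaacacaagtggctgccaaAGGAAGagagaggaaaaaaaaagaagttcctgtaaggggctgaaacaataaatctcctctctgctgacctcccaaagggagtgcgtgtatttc
Adgrl4 (chr3:151437632-151437881): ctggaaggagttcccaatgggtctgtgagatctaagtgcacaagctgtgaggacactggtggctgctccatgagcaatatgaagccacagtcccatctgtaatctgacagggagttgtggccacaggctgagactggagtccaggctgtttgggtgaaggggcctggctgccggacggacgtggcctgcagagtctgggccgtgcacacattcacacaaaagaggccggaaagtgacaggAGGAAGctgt
Rhoj (chr12:75308063-75308312): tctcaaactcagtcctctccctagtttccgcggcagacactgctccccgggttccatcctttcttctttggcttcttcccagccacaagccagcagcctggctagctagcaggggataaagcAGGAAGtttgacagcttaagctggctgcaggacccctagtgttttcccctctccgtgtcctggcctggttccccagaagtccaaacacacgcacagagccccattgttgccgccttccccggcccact
Rasgrp3 (chr17:75435655-75435904): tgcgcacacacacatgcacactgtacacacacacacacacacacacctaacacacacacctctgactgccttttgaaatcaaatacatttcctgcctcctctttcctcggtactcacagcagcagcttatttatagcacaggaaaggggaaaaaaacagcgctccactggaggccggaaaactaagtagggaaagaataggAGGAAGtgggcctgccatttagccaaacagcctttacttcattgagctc

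AGGAAG was present in 6 of the 7 windows and in at least 1 window of all 6 genes, against 29.5% of the 32851 windows of all genes. In the Emcn window it stood 93 bases before the start on the printed strand, and a match on the opposite strand began 174 bases before it. The Adgrl4, Rhoj and Rasgrp3 matches began 10, 128 and 49 bases before the start. CGGAAG was in 0 of the 7 windows, against 13.6% of all windows. GATAAG, a core of GATA factor sites, was in 1 of the 7, against 6.55%, and TGTTTAC, a core of forkhead factor sites, in 0, against 3.17%. Each string was counted on its own, and matches of different strings can share bases. A match is a string in a window and not a measured binding site.

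In ESC the knockdown was compared on arrays that played no part in choosing the genes. Pecam1 rose in knockdown ESC, and the other 9 genes did not pass the test. Pecam1 was at 10.35, 10.14 and 10.40 in knockdown ESC, against 9.49, 9.52 and 9.29 in control ESC. All knockdown arrays lay above all control arrays, by 0.86 ± 0.18 (SE), or 1.82-fold (limma adjusted p = 0.0187 over 18784 genes). Of all genes 1.84% rose and 3.37% fell here, so 1 of 10 risen is not read as a feature of the set. The Pecam1 call was lost without knockdown ESC replicate 1 (adjusted p = 0.0566), knockdown ESC replicate 3 (0.0826) or control ESC replicate 3 (0.101).

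Of the genes that did not pass, Cd34 was at 7.44, 8.19 and 8.06 in knockdown ESC, against 8.45, 8.67 and 9.0 in control ESC. These arrays did not overlap, and the difference was -0.81 ± 0.30 (SE, limma adjusted p = 0.156). Rhoj was at 5.99, 5.96 and 5.80 in knockdown ESC, against 5.75, 5.49 and 5.51 in control ESC, a difference of 0.34 ± 0.22 (SE, adjusted p = 0.441), also without overlap. Across all genes 10.6% were higher and 13.6% lower without overlap in ESC. The other 7 genes overlapped between the groups. Emcn was at 4.97, 5.0 and 4.87 in knockdown ESC, against 4.93, 4.91 and 5.13 in control ESC, a difference of -0.045 ± 0.37 (SE). Cdh5 was at 6.51, 6.60 and 6.44 in knockdown ESC, against 6.59, 6.42 and 6.34 in control ESC, a difference of 0.063 ± 0.29 (SE). In both ESC groups Emcn, Cd93, Adgrl4 and Rasgrp3 were under the lower quartile of every array, where a fall could hardly be seen.

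**Figure D2:**
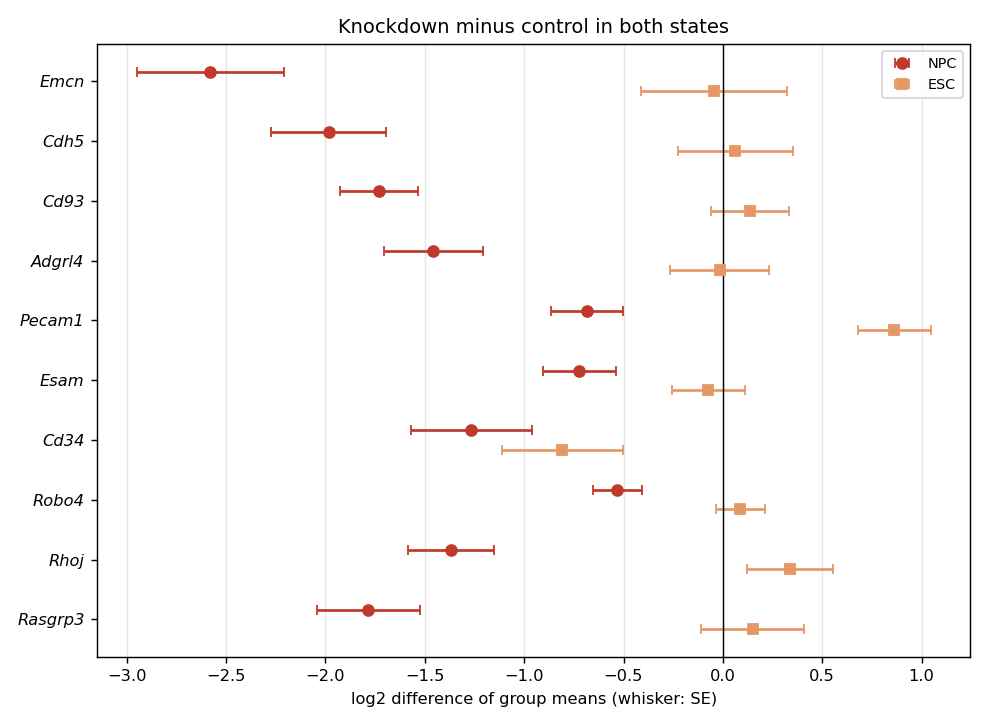
Log2 difference of group means, knockdown minus control (horizontal axis, whiskers are SE, n = 3 arrays a group), for each gene in NPC and in ESC. In NPC all 10 lie below 0, from -2.58 to -0.53. In ESC they lie from -0.81 (Cd34) to 0.86 (Pecam1), and 6 of the 10 lie above 0.

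The levels in NPC were also set beside those in ESC, separately in knockdown and in control cells. These differences use the NPC values on which the genes were chosen. A choice of genes low in knockdown NPC and high in control NPC makes the difference smaller in knockdown cells and larger in control cells. They are therefore given as a description, with no p-value, and nothing is read from how the knockdown and control differences compare. In knockdown cells 2 of the 10 were higher in NPC without overlap (Emcn and Cdh5) and 3 were lower (Pecam1, Robo4 and Rasgrp3). Of all genes 28.5% were higher and 33.9% lower without overlap there. In control cells 7 were higher without overlap (Emcn, Cdh5, Cd93, Adgrl4, Esam, Rhoj and Rasgrp3) and 1 was lower (Pecam1). Of all genes 24.5% were higher and 27.8% lower without overlap in control cells. Nothing is read from these counts, since the choice of genes favours rises in control cells and falls in knockdown cells.

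Emcn was higher in NPC by 1.21 ± 0.37 (SE) in knockdown cells and by 3.75 ± 0.37 (SE), or 13.4-fold, in control cells. Its NPC arrays lay above its ESC arrays in both. Cdh5 differed by 0.57 ± 0.29 in knockdown cells and by 2.62 ± 0.29 in control cells (SE). Cd93 differed by 0.12 ± 0.20 in knockdown cells and by 1.99 ± 0.20 in control cells (SE). Knockdown NPC arrays of Cd93 overlapped knockdown ESC arrays, whereas control NPC arrays lay above all control ESC arrays.

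The same held for Adgrl4 (0.30 ± 0.25 in knockdown and 1.74 ± 0.25 in control cells), Esam (0.19 ± 0.18 and 0.84 ± 0.18) and Rhoj (0.22 ± 0.22 and 1.93 ± 0.22, all SE). Rasgrp3 differed by -0.33 ± 0.26 in knockdown cells and by 1.61 ± 0.26 in control cells (SE). Its knockdown NPC arrays lay below its knockdown ESC arrays without overlap, as did 33.9% of all genes. All of these Rasgrp3 values, and those of Adgrl4 in knockdown NPC, were under the lower quartile of every array.

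Pecam1 was lower in NPC in both. It differed by -3.98 ± 0.18 (SE) in knockdown cells, or 15.8-fold, and by -2.43 ± 0.18 (SE) in control cells, or 5.40-fold. Its order of levels was knockdown NPC and control NPC at the low end, which overlapped, and then control ESC and knockdown ESC, which did not. Cd34 differed by -0.53 ± 0.30 in knockdown cells and by -0.072 ± 0.30 in control cells (SE). Robo4 differed by -0.65 ± 0.12 in knockdown cells and by -0.025 ± 0.12 in control cells (SE).

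**Figure D3:**
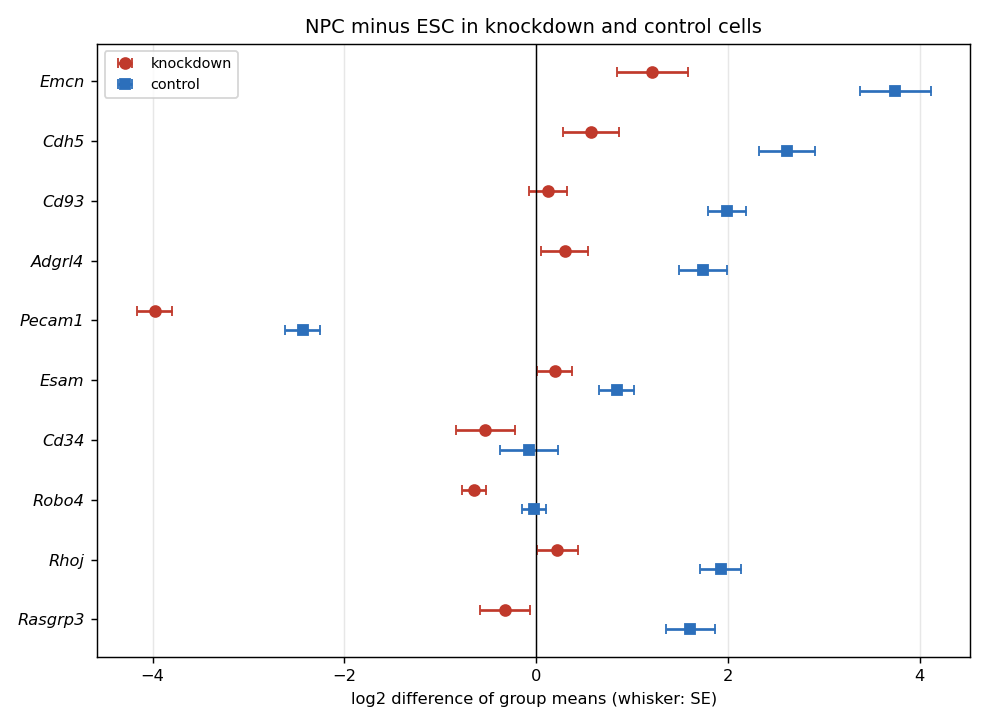
Log2 difference of group means, NPC minus ESC (horizontal axis, whiskers are SE, n = 3 arrays a group), for each gene in knockdown and in control cells. The choice of genes favours knockdown points left of control points, so their relative position is not read. Emcn has the largest positive difference in both, and Pecam1 the most negative.

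Beyond the 10 genes, 89 of 90 other genes with roles in endothelium were measured, in 5 lists. These were junction partners, surface and secreted proteins, VEGF and angiopoietin receptors, transcription factors, and guidance and GTPase signalling. The lists are not limited to genes particular to endothelium. Ctnnb1 averaged 12.87 in knockdown NPC and 12.86 in control NPC. Nrp1 was higher in NPC than in ESC by 3.21 in knockdown cells and by 3.65 in control cells. In knockdown NPC 0 rose and 4 fell (limma adjusted p under 0.05), beside 0.82% of all genes risen and 0.213% fallen. At an unadjusted p under 0.05, 2 were higher and 28 lower, beside 5.83% and 3.69% of all genes. Their median difference was -0.18, beside 0.0037 over all genes, and 67 of 89 had a difference below 0. These lists, and the lists of relatives and cell type markers below, were drawn up with earlier results of these data known. Their NPC counts are therefore a description and are not read against the shares of all genes.

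The 4 that fell were Plxnd1, a semaphorin receptor gene (-1.18 ± 0.21, limma adjusted p = 0.0150), and Tie1, an orphan receptor of the angiopoietin pathway (-0.95 ± 0.19, adjusted p = 0.0341). The others were Cldn5, the main claudin of endothelial tight junctions (-0.80 ± 0.15, adjusted p = 0.0244), and Nrp1, a VEGF and semaphorin co-receptor (-0.57 ± 0.12, all SE, adjusted p = 0.0405). Cldn5 was at 7.56, 7.35 and 7.18 in knockdown NPC, against 7.99, 8.07 and 8.45 in control NPC. Tie1 was at 6.26, 6.43 and 6.30 in knockdown NPC, against 6.72, 7.40 and 7.73 in control NPC. As in the 10 genes, control replicate 1 was the lowest control NPC array for both. Without single arrays the count changed. It was 0 without knockdown NPC replicate 2 or control NPC replicate 3, 1 without knockdown NPC replicate 3 or control NPC replicate 2, and 2 without knockdown NPC replicate 1, any knockdown ESC array or control ESC replicate 2. Without control NPC replicate 1 it was 11, and with the 6 NPC arrays alone it was 0.

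VEGF and angiopoietin receptors all lay below 0 in knockdown NPC (7 of 7, median -0.57), and 2 of them fell. Kdr, the main VEGF receptor of endothelium, was at 6.45, 6.44 and 6.31 in knockdown NPC, against 6.78, 7.40 and 8.07 in control NPC, and missed the threshold at -1.02 ± 0.23 (SE, limma adjusted p = 0.0563). Flt1, its relative, differed by -0.76 ± 0.19 (SE, adjusted p = 0.0926). Without control NPC replicate 1 both passed (0.00188 and 0.0111). Kdr also passed with the filter on low values (0.0463), the trended robust prior (0.0477) and median centring (0.0430). In all other runs neither passed, with an adjusted p of up to 0.231 for Kdr and 0.299 for Flt1. Among the 21 listed transcription factors 18 lay below 0 and 0 passed in limma. At an unadjusted p under 0.05, 9 were lower and 0 higher, beside 3.69% and 5.83% of all genes. The ETS factor gene Fli1 differed by -0.68 ± 0.16 (SE, limma adjusted p = 0.0812). It passed only without control NPC replicate 1 (0.00267), and its adjusted p reached 0.301 in other runs.

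The 28 surface and secreted genes had 0 passing in limma in knockdown NPC. At an unadjusted p under 0.05 there were 2 higher and 7 lower, beside 5.83% and 3.69% of all genes. Stab1, a scavenger receptor gene, differed by -0.66 ± 0.16 and Icam1, an adhesion gene of inflamed endothelium, by 0.91 ± 0.21 (SE, adjusted p = 0.0834 and 0.0679). Closest relatives of the 10 genes by protein family also had 0 passing of 15, with 1 higher and 3 lower unadjusted. Among them Cd248, of the Cd93 family, differed by -0.59 ± 0.15, Robo3 by -0.66 ± 0.21 and Rasgrp4 by 0.53 ± 0.12 (SE, adjusted p = 0.107, 0.206 and 0.0709).

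**Figure D4:**
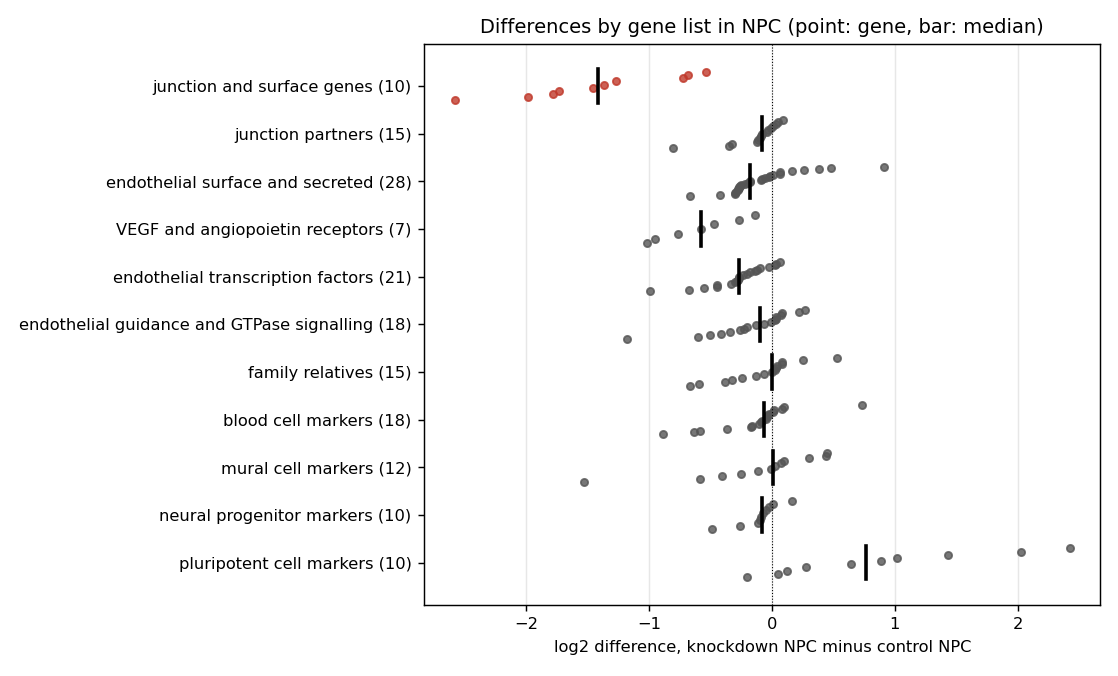
Log2 difference, knockdown NPC minus control NPC (horizontal axis), for each measured gene of the 10 genes and of 10 further lists, with the number of genes in brackets. Points are genes and bars are list medians. The median is -1.41 for the 10 genes, -0.57 for the VEGF and angiopoietin receptors and 0.77 for the pluripotent cell markers.

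In knockdown ESC the same 89 genes had 2 risen and 4 fallen, beside 1.84% of all genes risen and 3.37% fallen. Neither count is read as a feature of these lists. Ets2, an ETS factor gene (0.58 ± 0.12), and Vwf, the clotting factor carrier of endothelium (0.44 ± 0.12, SE), rose (limma adjusted p = 0.0192 and 0.0452). Unc5b, a netrin receptor gene (-1.03 ± 0.14), and Sema3e, a semaphorin ligand of plexin D1 (-0.90 ± 0.16), fell, as did the junction genes Ocln (-0.46 ± 0.12) and Ctnnd1, which encodes the cadherin partner p120 (-0.43 ± 0.085, all SE). The Ets2 call was lost without any of knockdown ESC replicates 2 and 3 and control ESC replicates 2 and 3 (adjusted p of 0.0532 to 0.0915), and the Ctnnd1 call without knockdown ESC replicate 3 (0.0581) or control ESC replicate 3 (0.0772). Without single arrays the Vwf adjusted p reached 0.218 and that of Ocln 0.202. Over the 89 genes the count risen was 0 without any of the 4 arrays that cost the Ets2 call, 6 without control ESC replicate 1 and 1 without control NPC replicate 1 or any knockdown NPC array. The count fallen was 2 without knockdown ESC replicate 3 or control ESC replicate 3. Of the 15 family relatives 1 rose, Robo1 (0.67 ± 0.12, SE, named after its value was seen), and 2 fell, Adgrl2 (-1.04 ± 0.14) and the sialomucin gene Podxl (-0.87 ± 0.14, SE). From ESC to NPC 25 of the 89 rose and 26 fell in knockdown cells, beside 23.8% and 25.0% of all genes. In control cells 40 rose and 24 fell, beside 23.5% and 25.1%.

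Markers of other cell types were set beside the NPC values. Of all genes 0.82% rose and 0.213% fell in knockdown NPC, and 5.83% were higher and 3.69% lower at an unadjusted p under 0.05. Blood cell markers had 1 risen and 2 fallen of 18 in knockdown NPC, with mean levels of 6.12 to 6.18 in knockdown NPC arrays and 6.23 to 6.29 in control NPC arrays. The embryonic globin genes Hbb-y (-0.89 ± 0.15) and Hba-x (-0.63 ± 0.13) fell and Laptm5 rose (0.73 ± 0.15, SE, limma adjusted p = 0.0112, 0.0384 and 0.0405). All 3 calls were lost without single arrays, up to an adjusted p of 0.0604 for Hbb-y (without knockdown NPC replicate 1), 0.173 for Hba-x and 0.184 for Laptm5. The pan-leukocyte marker Ptprc averaged 4.94 in knockdown NPC and 4.96 in control NPC, under the lower quartile of every array. Mural cell markers had 0 passing of 12 in limma (0 higher and 2 lower unadjusted), with mean levels of 7.48 to 7.81 in knockdown NPC arrays and 7.55 to 7.89 in control NPC arrays. The smooth muscle actin gene Acta2 was at 8.55, 8.32 and 7.82 in knockdown NPC, against 9.12, 10.05 and 10.10 in control NPC (-1.53 ± 0.58, SE, adjusted p = 0.358).

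Pluripotent cell markers had 4 risen and 0 fallen of 10 in knockdown NPC (limma), beside 0.82% and 0.213% of all genes. At an unadjusted p under 0.05, 6 were higher and 0 lower, beside 5.83% and 3.69%. The 4 that rose were Dppa5a (2.43 ± 0.37), Utf1 (1.44 ± 0.21), Tdgf1 (1.02 ± 0.19) and Esrrb (0.64 ± 0.11, all SE, limma adjusted p = 0.00662, 0.00558, 0.0214 and 0.0119). The Tdgf1 and Esrrb calls were lost without some single NPC arrays, up to an adjusted p of 0.0949 and 0.0707. With the 6 NPC arrays alone all 4 calls were lost (Utf1 0.0793, Dppa5a 0.0905, Esrrb 0.0904 and Tdgf1 0.152). The mean level of all 10 markers was 8.14, 7.96 and 7.28 in the knockdown NPC arrays, against 6.51, 7.08 and 7.18 in the control NPC arrays. Knockdown replicate 3 and control replicate 1 were the lowest of their groups for these markers, as they were for the 10 genes. Neural progenitor markers had 0 passing of 10 in limma (0 higher and 1 lower unadjusted), with mean levels of 11.07 to 11.17 in knockdown NPC arrays and 11.11 to 11.31 in control NPC arrays. The part of these cell types in the values of the 10 genes was not tested.

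**Figure D5:**
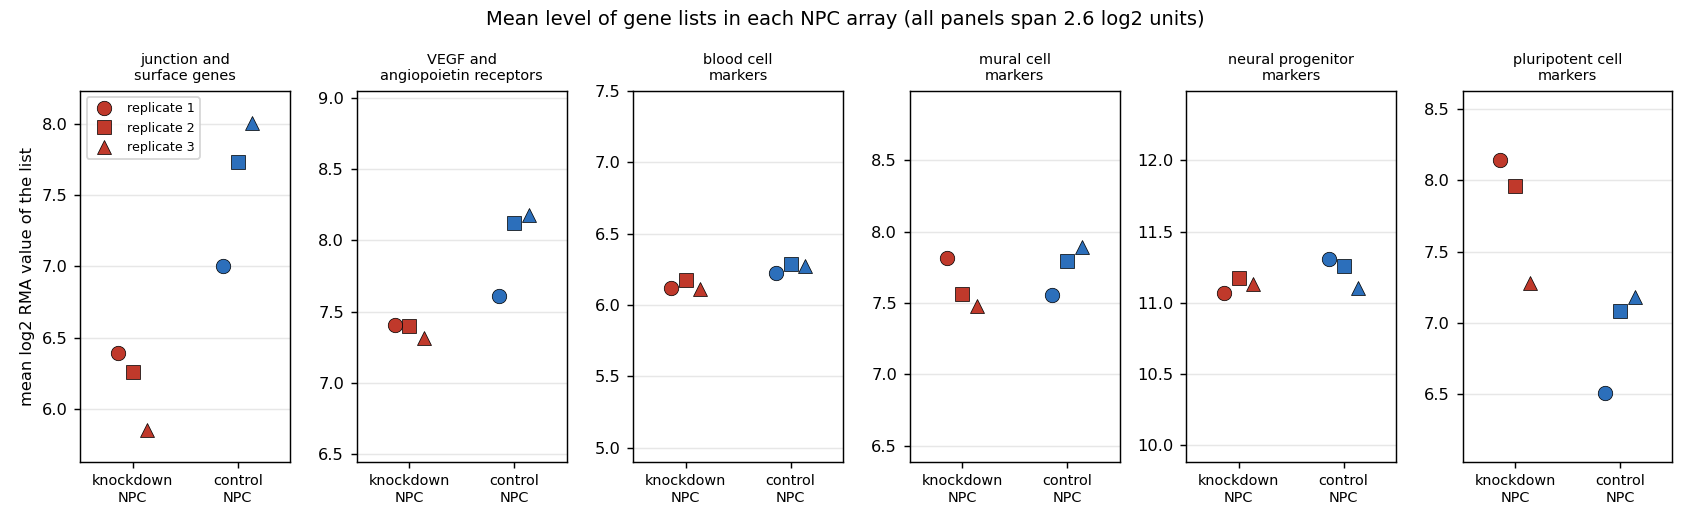
Mean log2 RMA value (vertical axis, each panel spanning the same number of log2 units) of 6 gene lists in each NPC array, with the marker giving the replicate number. The 10 genes lie at 5.85 to 6.40 in knockdown NPC and 7.0 to 8.01 in control NPC, and the pluripotent cell markers at 7.28 to 8.14 in knockdown NPC and 6.51 to 7.18 in control NPC.

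Over all 12 arrays, the genes outside the set whose pattern was most like the mean of Emcn, Cdh5 and Cd93 were Bmp5, a growth factor gene (r = 0.97), Plpp3, a lipid phosphatase gene (0.96), and Postn, a matrix protein gene (0.96). Clmp, an immunoglobulin-type junction protein gene (0.96), Osr1, a mesoderm transcription factor gene (0.95), and Lsp1, an actin-binding protein gene (0.95), followed. Being chosen for likeness, they are described without a test. Osr1 was at 7.68, 7.71 and 7.45 in knockdown NPC, against 7.91, 9.51 and 9.21 in control NPC, and control replicate 1 was again the lowest control array. Bmp5 was at 5.96, 6.30 and 6.07 in knockdown NPC, against 6.77, 7.19 and 7.34 in control NPC. Within the set, the same r was 0.98 for Rhoj, 0.98 for Adgrl4, 0.93 for Esam and 0.91 for Rasgrp3, but 0.37 for Cd34, 0.017 for Robo4 and -0.57 for Pecam1. The points of these r share the ESC and NPC difference and the arrays.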

How the data were processed

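RNA was measured on 12 arrays, 3 in each of 4 groups read from the sample titles. The deposited values are log2 intensities, with affy, RMA and limma named, without versions, per the submitters' processing notes. The array annotation gave 1 symbol to 18786 of 21212 probe sets, several to 6 and none to 2420. A gene's probe set with the highest mean was used (18784 genes). Array medians lay between 7.70 and 7.79, arrays of a group correlated at 0.992 to 0.997, and each counted as 1 sample.

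Here limma 3.58.1 (R 4.3.3) fitted group means over the 12 arrays (lmFit, contrasts.fit, eBayes; 8 residual and 4.81 prior degrees of freedom). Tests were two-sided with Benjamini-Hochberg adjustment over 18784 genes, and "rose" and "fell" mean an adjusted p under 0.05. These steps were tested on simulated data with 200 of 18784 genes changed by 1 (log2). The share recovered was 95% for knockdown in ESC and 94% for knockdown in NPC, with 8 and 12 false calls. The simulated noise was independent between genes, with 1 SD per gene for all groups. The measured groups were unequally spread and genes varied together, so these shares do not give the share recovered in these data. The number of arrays limits the precision.

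The 10 genes and the 10 other lists (154 of 156 entries measured) were chosen with earlier results of these data known. Named from each list were up to 4 genes with the smallest p in NPC and up to 2 in ESC. Genes of like pattern were the 6 with the highest r, among those ranging over at least 1 log2 unit and outside unnamed gene models.

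Replicate numbers come from the titles. Same-numbered control NPC and control ESC arrays had deviations from their group means that correlated at 0.27, 0.29 and 0.33. On the evidence of the data alone, these numbers were taken as pairs in the blocked runs only. The main fit left the arrays unpaired. The other comparisons each had a pair under 0.1. The settings tried were blocking on the replicate number, filtering dim genes (14767 left), a trended robust prior, weighting arrays, centring on medians, quantile normalization, averaging a gene's probe sets, fitting 6 arrays only, and omitting each array. Blocking within the 6 control arrays was chosen after seeing the data. Promoter windows came from RefSeq (GRCm38.p6).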

Additional observations from a re-analysis of the deposited data

Results flagged for a closer look

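Rhoj was lower in all knockdown NPC arrays and higher in all knockdown ESC arrays than in the matching controls. The ESC difference of 0.34 ± 0.22 (SE) did not pass the test (limma adjusted p = 0.441), and 10.6% of all genes were higher without overlap there. The effect in NPC minus that in ESC was -1.70 (log2), and the difference was not tested, because the NPC comparison chose the gene.

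Among the genes that the naming rule took from the other lists, 6 had an effect in NPC that differed from that in ESC by limma's interaction term (NPC minus ESC, log2, adjusted over 18784 genes). Of all genes 1.18% passed upward and 0.245% downward. The naming rule took genes for a small p in NPC or in ESC, and the interaction is the difference of those effects. Passing was thus favoured, and the count of 6 is not read against these shares. Bmp5 and the other genes of like pattern were chosen on the same arrays and are not counted. The semaphorin gene Sema3e differed by 1.18 ± 0.22 (adjusted p = 0.0301), with a fall in ESC. The latrophilin gene Adgrl2 differed by 0.91 ± 0.20 (adjusted p = 0.0478), also with a fall in ESC. The embryonic globin gene Hbb-y differed by -1.15 ± 0.21 (adjusted p = 0.0239), with a fall in NPC. Plvap, which encodes a protein of endothelial fenestrae, differed by -0.56 ± 0.12 (adjusted p = 0.0410) and passed in neither state alone. The pluripotency genes Dppa5a and Utf1 differed by 2.38 ± 0.52 and 1.37 ± 0.30 (all SE, limma adjusted p = 0.0443 and 0.0437), with rises in NPC.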

How the results depend on the processing

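The ESC to NPC difference of Emcn in control cells was 3.75. It ran from 3.41 to 3.75 over the other settings, the replicate block on all 12 arrays and on the 6 control arrays among them. Without single arrays it ran from 3.32 to 4.24. In knockdown cells it was 1.21, and ran from 1.02 to 1.29 over the other settings and from 0.97 to 1.57 without single arrays. These differences use the NPC arrays that chose the genes, so their stability is not read as support. In knockdown ESC the count of the 10 genes risen was 1 and ran from 0 to 1 without single arrays. The count fallen there was 0 throughout. The median NPC difference of the 10 genes was -1.41. It ran from -1.44 to -1.37 over the other settings and from -1.68 to -1.15 without single arrays. Of the 89 other genes with roles in endothelium, the 4 that fell in knockdown NPC became 2 with the replicate block. They became 0 with the 6 arrays alone, and 0 to 11 without single arrays. In knockdown ESC the 2 that rose became 1 with the replicate block, with the intensity trend and with the 6 arrays alone, 6 with array weights and 4 with quantile normalization, and 0 to 6 without single arrays. The 4 that fell there became 9 with array weights, and 2 to 6 without single arrays. The labels do not say whether same-numbered arrays of a knockdown comparison are pairs. Their deviations from the group means correlated at -0.17, 0.19 and -0.17 in NPC and at 0.030, -0.026 and 0.092 in ESC. These few values cannot settle it. Over 108 values of single genes, of 2168 recomputed values 2022 kept their side of the threshold, or their size where there was no test, 108 lost it, 38 gained it and 0 reversed. The cause of these changes was not tested. Low signal limits Emcn, Cd93, Adgrl4 and Rasgrp3 in ESC, where values lie near the floor of the arrays. Cd93, Adgrl4 and Rasgrp3 were likewise under the lower quartile of every array in knockdown NPC.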
